A study of Homo sapiens with 12 samples.

Results

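The 51 genes described here are neighbours on the long arm of chromosome 11 (bands q13 to q21), from GDPD5 to SRSF8, among 40591 named gene lines. An earlier look at these libraries showed many of them lower in the cells labelled GSTA4, and that is what chose them. Values that include GSTA4 libraries are therefore given for them as a description. Counts of members past the fit's threshold in such comparisons are part of that description, not a test, and support nothing. Of the 51, 50 passed the low-count filter and stood among the 15179 genes tested. DGAT2, an enzyme of triglyceride synthesis, did not pass, with 2 to 16 reads in a library. All libraries were poly(A) RNA of ARPE-19, a widely used human cell line that grew out of retinal pigment epithelium (RPE), with 3 libraries in each of 4 groups. WT names cells with no open reading frame (ORF) in the label, GFP a stable line with a green fluorescent protein ORF, GSTA4 a stable line with glutathione S-transferase alpha 4, and OSK a stable line read as carrying POU5F1 (OCT4), SOX2 and KLF4. The lines with an ORF were taken 4 days into its expression, and no such time applies to WT. Nothing in the labels tells if a group's libraries come from separate cultures or if a line is a single clone. P-values therefore measure the spread between these libraries, which may be technical, and an ORF cannot be told apart from other differences between the lines.

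The RPE is the pigmented cell layer behind the photoreceptors, which it feeds and whose shed membranes it digests. GSTA4 couples glutathione to the reactive aldehydes that form when membrane lipids oxidise. The neighbours on 11q13-q21 do not form a pathway: by role, 8 members act in RNA synthesis and processing, 5 in chromatin and DNA repair, 6 in mitochondria and peroxisomes, 6 in vesicle traffic and autophagy, 9 in protein folding, glycosylation and proteolysis, 8 in signalling or at the plasma membrane, 3 in lipid metabolism and 6 in the cytoskeleton or in roles less well known. Because the genes have a place on the chromosome in common and little else, the question put to them was whether all of them shift by a common ratio. DNA copy number was not analysed here.

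Total counts ran from 12630675 to 17045454 reads. The genes of the ORFs fitted the group names, with GSTA4 at 396.4 to 430.7 CPM (reads scaled to a common library size) in the GSTA4 libraries and 7.83 to 9.44 in GFP. Of 15 RPE markers 12 passed the filter, while RPE65, TTR and DCT, which mark mature or pigmented RPE, had at most 10, 4 and 5 reads in a library. The summed RPE markers stood at 2422 to 2661 CPM in WT, 2192 to 2526 in GFP, 1578 to 1650 in GSTA4 and 1402 to 1470 in OSK. The keratin KRT8 is the largest term of that sum, and the markers did not move as a block: 10 of the 12 had a lower mean in GSTA4 than in GFP, while LRAT had 3.887 CPM in GFP and 14.33 in GSTA4, and GFP had a higher mean than WT in 10 although the sum was not higher. The summed pluripotency markers, with none of 5 passing the filter, reached at most 1.37 CPM, in a GFP library. In GFP replicate 1, 27349 named genes had a read, where the remaining libraries had 19488 to 22073, and WT replicate 1 stood apart for several members, named below.

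In the GSTA4 libraries the members stood lower than in GFP on balance, but not by a common ratio and not all of them. Of the 50, 41 had a log2 fold change below 0 against GFP, with a median of -0.24, which is 84.4% of the GFP level. In bulk RNA, fewer cells of a type and less RNA per cell cannot be told apart. By the edgeR quasi-likelihood fit over all genes, with an adjusted p under 0.05, 26 were lower and 5 higher. Among all genes tested 14.6% were lower and 14.7% higher, and since the members were chosen on these libraries nothing is read from that distance. Against WT the label held less well, with 34 of 50 below 0, a median of -0.15 (90.3% of the WT level), 19 lower and 9 higher, where 19% and 19.7% of all genes were. Set against GSTA4, the OSK libraries had 17 members higher and 12 lower, with a median of 0.11 and a background of 24.1% and 23.8%.

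Each library's own median over the 50 members shows the same order of groups. Taken as log2 CPM minus each gene's mean over the 12 libraries, the member median was 0.135, 0.142 and 0.13 in the GFP libraries and -0.159, -0.152 and -0.144 in the GSTA4 libraries. It was -0.011, 0.0023 and 0.035 in WT and -0.082, 0.010 and -0.059 in OSK. The GFP libraries were thus the highest and the GSTA4 libraries the lowest, with WT and OSK between them and overlapping each other. The median over all genes tested stayed between -0.013 and 0.0052 in all 12 libraries. The distance between GSTA4 and GFP held both a GSTA4 median under that of WT and a GFP median above it. Choosing members as lower in GSTA4 than in GFP favours this order, so it is a description and nothing is read from it.

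**Figure D1:**
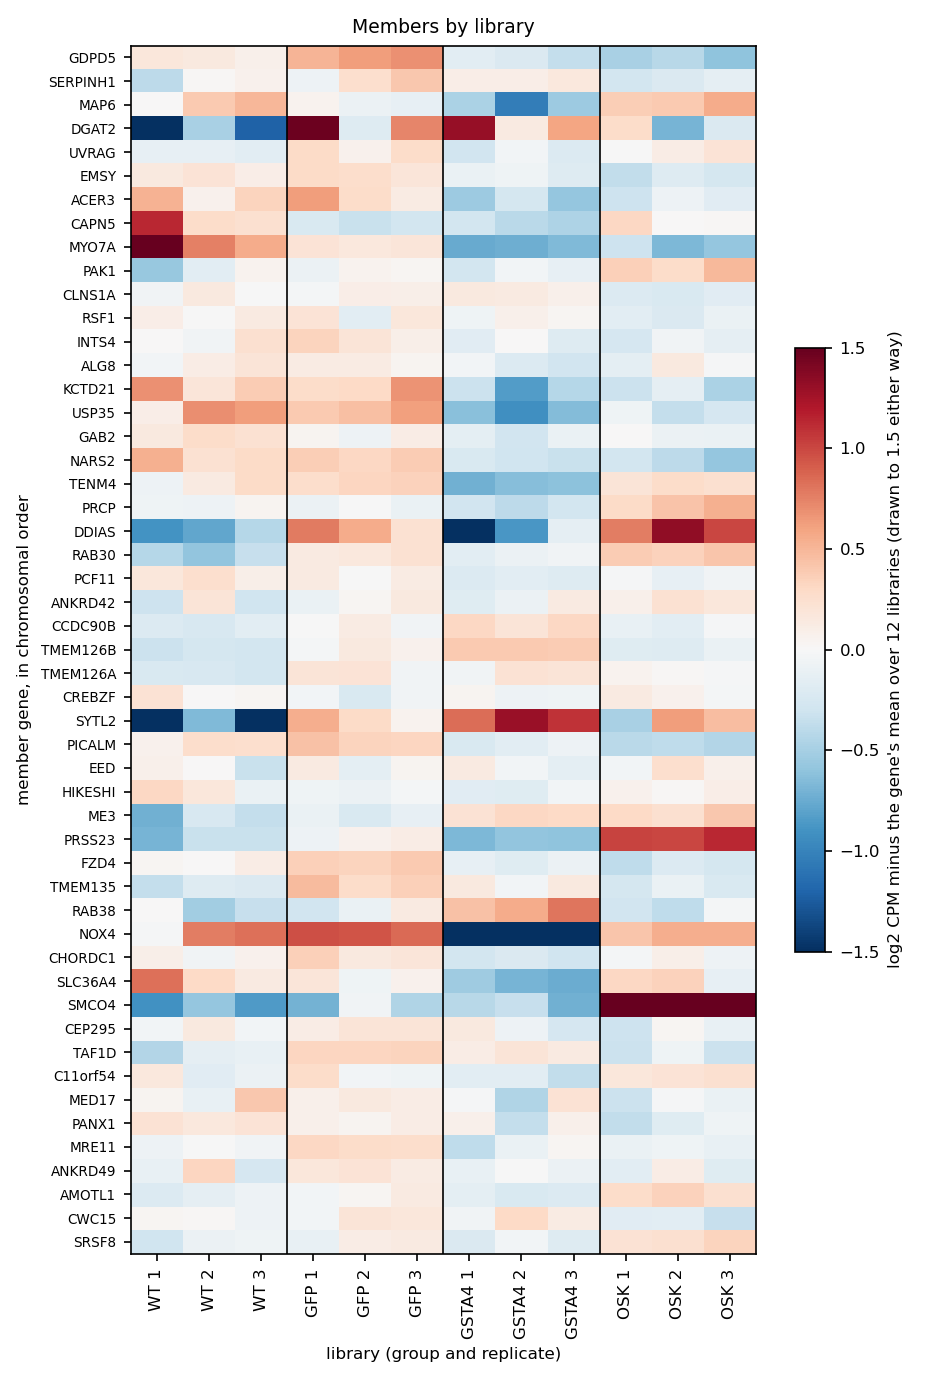
Members (rows, in chromosomal order) by library (columns, 3 per group): colour gives log2 CPM minus the gene's mean over the 12 libraries, drawn to 1.5 either way. NOX4, TENM4 and USP35 are blue in all 3 GSTA4 libraries, while SYTL2, RAB38, ME3 and TMEM126B are red there, and SMCO4 and PRSS23 are red in the OSK libraries.

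The members' ratios were about as scattered as those of all genes tested, and more scattered when only well-covered genes were compared. In GSTA4 against GFP the middle part of the 50 (quartiles) ran from -0.51 to -0.076 on the log2 scale, a width of 0.437, against 0.453 for all genes tested. Exactly 25 of 50 members (50%) lay within 0.2 of the members' median, and 46.2% of all genes lay as close to theirs. Among genes with a mean of at least 10 CPM, where counting error is small, the share was 46.7% for 45 members and 57.6% for all genes. The width between quartiles was then 0.428 for the members and 0.332 for all genes. A shift common to all members, added to gene-by-gene changes, would move the median and not the width. The widths therefore do not decide whether such a shift was present. The extremes were NOX4 at -2.87 and SYTL2 at 0.78.

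NOX4, the NADPH oxidase that makes hydrogen peroxide, had 8.20, 9.46 and 9.15 CPM in the GSTA4 libraries, 67.1, 65.8 and 62.1 in GFP, 34.0, 58.4 and 60.7 in WT and 45.8, 50.01 and 50.2 in OSK. The GSTA4 libraries lay far under all 9 others, at 13.7% of the GFP level. DDIAS, a suppressor of cell death after DNA damage, had 0.508, 0.826 and 1.38 CPM in GSTA4, 2.59, 2.22 and 1.77 in GFP, 0.809, 0.881 and 1.12 in WT and 2.56, 3.80 and 3.03 in OSK. These are 8 to 60 reads, and GSTA4 lay under GFP but overlapped WT. USP35, a deubiquitinase, had 21.5, 17.6 and 21.1 CPM in GSTA4, 43.3, 45.5 and 50.8 in GFP, 35.4, 53.5 and 51.2 in WT and 31.7, 25.9 and 27.7 in OSK. GSTA4 was lowest, OSK next, and both lay under the 6 control libraries.

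TENM4, a teneurin that links cells across the membrane, had 69.9, 74.1 and 75.6 CPM in GSTA4, 139.0, 144.2 and 147.0 in GFP, 109.3, 126.8 and 141.5 in WT and 132.0, 140.0 and 137.0 in OSK. Its lowering stood in the GSTA4 libraries, while OSK overlapped both controls. KCTD21, an adaptor of cullin ubiquitin ligases and the neighbour of USP35, had 10.2, 7.21 and 9.56 CPM in GSTA4, 15.6, 15.8 and 20.5 in GFP, 20.7, 14.5 and 16.8 in WT and 10.3, 11.7 and 9.22 in OSK. GSTA4 and OSK lay under both controls and overlapped each other. MYO7A, the myosin that carries melanosomes and phagosomes in RPE, had 82.2, 83.5 and 87.0 CPM in GSTA4, 159.7, 154.3 and 157.1 in GFP, 495.6, 233.1 and 203.4 in WT and 111.0, 86.9 and 92.5 in OSK. WT replicate 1 was more than any other library by a wide margin, and GSTA4 overlapped OSK.

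At the other end, SYTL2, an effector of RAB27 in granule docking, had 6.23, 8.56 and 7.36 CPM in GSTA4, 5.10, 4.23 and 3.60 in GFP, 0.622, 2.20 and 1.18 in WT and 2.49, 5.38 and 4.78 in OSK. All 3 GSTA4 libraries were the highest of the 12. RAB38, a GTPase of melanosome formation, had 9.98, 10.8 and 12.9 CPM in GSTA4, 6.01, 6.88 and 8.08 in GFP, 7.40, 5.14 and 5.78 in WT and 6.05, 5.63 and 7.18 in OSK. ME3, the mitochondrial malic enzyme, had 64.5, 69.0 and 68.6 CPM in GSTA4, 51.7, 47.6 and 50.95 in GFP, 33.8, 47.1 and 43.4 in WT and 68.7, 65.7 and 73.4 in OSK, so that GSTA4 and OSK lay above both controls. Beside these melanosome and granule genes, the mean levels of the pigment markers TYR, TYRP1 and PMEL were 65.96, 200.3 and 357 CPM in GFP and 11.93, 46.44 and 101.5 in GSTA4, and their part was not tested.

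TMEM126B, an assembly factor of respiratory complex I, had 32.1, 32.1 and 31.8 CPM in GSTA4, 24.0, 27.2 and 25.6 in GFP, 19.7, 20.3 and 20.2 in WT and 21.6, 21.5 and 22.9 in OSK. CCDC90B, a coiled-coil protein of the inner mitochondrial membrane, had 54.5, 50.4 and 54.6 CPM in GSTA4, 43.8, 47.7 and 42.5 in GFP, 38.1, 37.1 and 39.2 in WT and 40.7, 39.3 and 43.3 in OSK. For both of these genes the GSTA4 libraries were the highest of the 12. CREBZF, a leucine zipper transcription cofactor, had 138.6, 127.7 and 128.2 CPM in GSTA4 and 130.2, 115.0 and 129.4 in GFP, which overlap, with 155.5, 134.4 and 137.0 in WT and 147.1, 140.2 and 131.7 in OSK.

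The 4 members nearest the median of -0.24 show what a typical member did. AMOTL1, an angiomotin at cell junctions, had 204.2, 192.5 and 196.6 CPM in GSTA4, 220.3, 230.7 and 248.4 in GFP, 196.2, 205.4 and 214.7 in WT and 273.1, 286.0 and 266.5 in OSK. PRCP, a lysosomal carboxypeptidase, had 94.4, 87.9 and 95.0 CPM in GSTA4, 108.1, 114.4 and 107.6 in GFP, 109.6, 108.7 and 118.4 in WT and 140.9, 155.3 and 166.1 in OSK. In both, GSTA4 lay just under GFP and OSK above all other groups. ANKRD49, an ankyrin repeat protein, had 9.85, 10.6 and 9.98 CPM in GSTA4, 12.01, 12.3 and 11.6 in GFP, 9.83, 13.3 and 8.97 in WT and 9.53, 11.5 and 9.36 in OSK. ALG8, a glucosyltransferase of N-glycan assembly, had 26.4, 23.6 and 22.3 CPM in GSTA4, 29.7, 29.7 and 27.9 in GFP, 26.4, 29.3 and 31.1 in WT and 24.5, 30.1 and 26.9 in OSK. GSTA4 lay under GFP in both of these as well, but touched or overlapped WT.

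The promoters of the members at the 2 ends are shown because the members differ most there. Of the 51 members 44 had an entry in RefSeq's promoter table (build GRCh38.p14); SYTL2, RAB38, MYO7A, MAP6, DGAT2, UVRAG and CAPN5 are named only. Each line gives the 250 bases before the start, 5′ to 3′ on the gene's strand, for the 3 lowest and the 3 highest members with an entry in GSTA4 against GFP. NOX4 is chr11:89491376-89491625 (minus strand), DDIAS chr11:82901486-82901735 (plus strand), USP35 chr11:78188669-78188918 (plus strand), CCDC90B chr11:83286368-83286617 (minus strand), TMEM126B chr11:85628323-85628572 (plus strand) and ME3 chr11:86672617-86672866 (minus strand). Capitals mark matches, on either strand, to the motifs named in the next paragraph.
NOX4: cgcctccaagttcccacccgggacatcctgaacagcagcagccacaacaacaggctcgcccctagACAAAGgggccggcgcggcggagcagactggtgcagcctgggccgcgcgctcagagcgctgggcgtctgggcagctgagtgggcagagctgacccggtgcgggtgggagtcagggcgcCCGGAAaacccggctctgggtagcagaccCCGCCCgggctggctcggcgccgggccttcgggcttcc
DDIAS: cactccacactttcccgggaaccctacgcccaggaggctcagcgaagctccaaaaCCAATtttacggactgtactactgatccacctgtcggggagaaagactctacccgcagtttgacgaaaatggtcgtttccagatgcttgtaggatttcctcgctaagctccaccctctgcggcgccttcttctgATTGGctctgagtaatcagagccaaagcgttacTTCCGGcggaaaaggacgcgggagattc
USP35: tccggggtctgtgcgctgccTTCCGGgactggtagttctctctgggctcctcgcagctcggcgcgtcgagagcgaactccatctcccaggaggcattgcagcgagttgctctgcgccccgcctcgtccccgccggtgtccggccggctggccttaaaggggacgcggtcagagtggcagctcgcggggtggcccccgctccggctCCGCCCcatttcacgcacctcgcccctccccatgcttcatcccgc
CCDC90B: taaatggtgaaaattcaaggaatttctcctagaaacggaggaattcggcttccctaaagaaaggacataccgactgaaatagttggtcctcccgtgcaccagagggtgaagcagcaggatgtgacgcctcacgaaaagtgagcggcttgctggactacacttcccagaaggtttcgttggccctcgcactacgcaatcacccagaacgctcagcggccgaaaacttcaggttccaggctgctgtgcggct
TMEM126B: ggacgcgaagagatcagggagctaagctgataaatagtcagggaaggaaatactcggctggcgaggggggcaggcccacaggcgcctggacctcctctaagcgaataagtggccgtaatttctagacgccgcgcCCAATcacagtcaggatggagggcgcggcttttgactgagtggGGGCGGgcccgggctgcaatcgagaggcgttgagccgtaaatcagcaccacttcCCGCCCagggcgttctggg
ME3: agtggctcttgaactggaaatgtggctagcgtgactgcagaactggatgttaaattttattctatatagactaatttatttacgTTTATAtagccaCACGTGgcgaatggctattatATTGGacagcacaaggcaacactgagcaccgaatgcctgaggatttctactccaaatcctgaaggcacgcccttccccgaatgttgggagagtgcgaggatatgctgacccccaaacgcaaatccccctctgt
The NOX4 entry lies inside the span the annotation gives to the gene, and the other 5 end where their gene starts.

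Motifs were searched as exact letters on both strands in the 250 bases before the start. The GC box (GGGCGG) was in 27 of 44 member promoters (61.4%) and in 42.5% of all 34943 promoters. The ETS core (CCGGAA) was in 19 of 44 (43.2%) against 14.5%, and the CCAAT box (CCAAT) in 17 (38.6%) against 32%. TATAAA was in 3 (6.82%) against 10.8%, CATGTG, an E-box that MITF binds, in 1 (2.27%) against 9.45%, CACGTG in 1 (2.27%) against 6.32%, TGANTCA (AP-1) in 1 (2.27%) against 6.59%, and ACAAAG (SOX core) in 4 (9.09%) against 13.7%. Neither the octamer ATGCAAAT nor the CRE TGACGTCA was found in the 44, where each was in 1.63% of all promoters. At least 10 CG pairs were in 41 of 44 (93.2%) against 52.1%. The members were taken from expressed genes and the full table was not, so these shares are a description, and a match is not a bound site. The printed promoters at the low end held 23, 16 and 27 CG pairs (NOX4, DDIAS and USP35), and those at the high end 14, 19 and 9 (CCDC90B, TMEM126B and ME3).

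Along the chromosome the lowering in GSTA4 against GFP had no clear edge at either end of the members. From the start of GDPD5 to the end of SRSF8 (chr11:75434640-95071225, GRCh38.p14, 19.6 Mb) lay 77 tested genes, of which 27 were not members. Those 27 had a median of -0.57 in GSTA4 against GFP, 8 lower and 2 higher (29.6% and 7.41%). Their median lay under that of the members, but a smaller share was called lower than the members' 52%. Several had low counts, such as GDPD4 (mean 0.741 CPM) and CCDC81 (0.766), so the medians are not matched for level. The interval itself was chosen on these libraries. Among them TYR, the tyrosinase of melanin synthesis, had 65.96 CPM ± 7.61 in GFP and 11.9 ± 0.928 in GSTA4 (SD, n = 3), a log2 fold change of -2.47. DISC1FP1, a long noncoding RNA, was at -2.42, TSKU, a secreted leucine-rich protein, at -1.72, AQP11, an aquaporin, at -1.08, KCTD21-AS1 at -0.97, FAT3, a giant cadherin, at -0.82, RAB30-DT at -0.58 and THAP12 at -0.31. CTSC, the lysosomal cathepsin C, was at 0.80 and the pseudogene RPS28P7 at 0.57.

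Outside the ends, the 51 tested genes before GDPD5 had a median of -0.17 (18 lower, 1 higher), and the 51 after SRSF8 a median of -0.25 (23 lower, 6 higher). The closest tested genes before GDPD5, KLHL35 and RPS3, were at 0.00031 and -0.078. Those after SRSF8 went both ways, with ENDOD1 at -0.54 and SESN3, a stress-induced sestrin, at 1.22. All 741 tested genes of chromosome 11 outside the interval had a median of -0.14, while the medians of 22 other chromosomes ran from -0.017 to 0.089. Of the 741, the 553 before the interval had a median of -0.10 and the 188 after it -0.22. The members' median thus lay close to that of the genes after them. Against WT the same flanks had medians of -0.10 before and -0.055 after, with 27.5% and 19.6% lower. The members' median there was -0.147, with 38% lower.

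**Figure D2:**
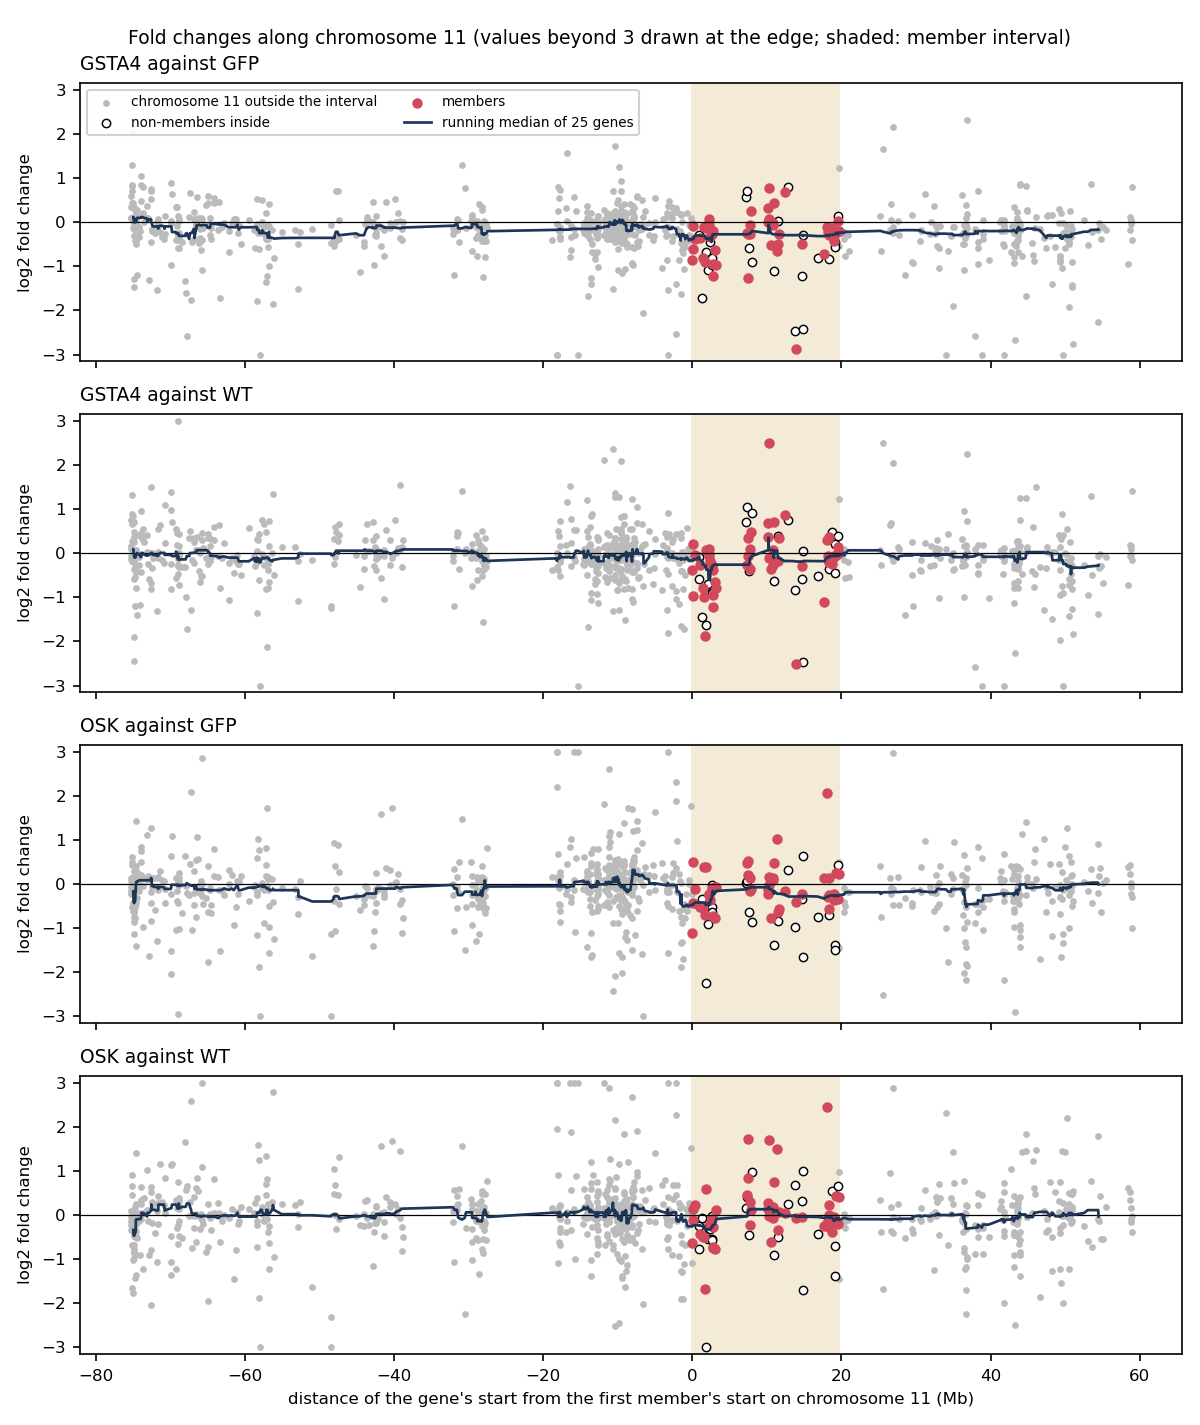
Log2 fold change of each tested gene of chromosome 11 against its distance in Mb from the start of GDPD5, in 4 comparisons: members filled, non-members inside open, other genes grey, line the running median of 25 genes. In GSTA4 against GFP the line stays under 0 across the shaded interval and beyond it, and single members reach from -2.87 to 0.78.

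Members were also uneven within the interval. Split where neighbouring members lie over 1 Mb apart, they formed 5 stretches. The first, from GDPD5 to TENM4 (chr11:75434640-79441030, 18 tested), had a median of -0.38 in GSTA4 against GFP and -0.38 against WT, with 13 and 12 lower and none higher, where 14.6% and 19% of all genes were lower and 14.7% and 19.7% higher. From PRCP to CCDC90B (6 genes, chr11:82822936-83286367) the medians were -0.26 and 0.0086, with 4 lower and 1 higher against GFP. From TMEM126B to RAB38 (12 genes, chr11:85628573-88175443) they were -0.0075 and 0.206, with 4 lower and 4 higher against GFP. The stretch of NOX4 and CHORDC1 had medians of -1.68 against GFP and -1.41 against WT, with NOX4 at -2.87 and CHORDC1 at -0.495 against GFP. The 12 genes from SLC36A4 to SRSF8 (chr11:93144174-95071225) had medians of -0.21 and -0.069, with 3 lower against GFP. These counts describe the GSTA4 libraries that chose the members, and nothing is read from them.

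OSK against WT holds no GSTA4 or GFP library. The members were nevertheless chosen with results of all 4 groups known, so its tests are not shown to be independent of the choice. Of the 50 members, 15 fell and 10 rose (30% and 20%), against 22.7% lower and 22.7% higher of all genes tested, with a median of -0.055. The shares were near the background, and the members went both ways. The 11 calls of lower members in the first stretch, from GDPD5 to TENM4, stood beside 1 higher, with a median of -0.26, while the stretch from PRCP to CCDC90B had 1 lower and 3 higher, with a median of 0.37. Whether stretches differ was not tested.

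The members that rose most in OSK against WT were SMCO4, DDIAS, SYTL2, PRSS23, RAB30 and ME3. SMCO4, a small membrane protein, had 1.99, 2.497 and 2.07 CPM in WT, 2.28, 3.58 and 2.72 in GFP, 2.80, 2.93 and 2.27 in GSTA4 and 13.3, 11.8 and 10.8 in OSK. Only the OSK libraries stood out among these 12, and the log2 fold change was 2.46 ± 0.205 (SE, adjusted p 3.36e-09). PRSS23, a secreted serine protease, had 347.4, 447.3 and 448.3 CPM in WT, 535.0, 588.6 and 610.6 in GFP, 353.5, 373.3 and 370.6 in GSTA4 and 1140, 1135 and 1238 in OSK. OSK lay above all other libraries, at 1.499 ± 0.0824 against WT (adjusted p 4.88e-12). RAB30, a GTPase of the Golgi, had 23.1, 20.5 and 24.3 CPM in WT, 33.9, 34.5 and 36.3 in GFP, 27.6, 29.1 and 29.9 in GSTA4 and 40.1, 39.4 and 41.4 in OSK. The 4 groups did not overlap, and RAB30 rose by 0.83 ± 0.0824 (adjusted p 4.53e-08). DDIAS rose by 1.73 ± 0.35 (adjusted p 0.00038), SYTL2 by 1.70 ± 0.346 (adjusted p 0.000407) and ME3 by 0.74 ± 0.0924 (adjusted p 1.17e-06). DDIAS and SYTL2 had 10 to 85 reads in the libraries of this comparison.

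The members that fell most in OSK against WT were MYO7A, NARS2, KCTD21, USP35, GDPD5 and PICALM. MYO7A changed by -1.68 ± 0.206 (adjusted p 9.03e-07), and by -1.17 without WT replicate 1. NARS2, the mitochondrial asparaginyl-tRNA synthetase, had 33.7, 27.4 and 28.6 CPM in WT, 30.1, 28.96 and 30.4 in GFP, 19.9, 19.0 and 18.4 in GSTA4 and 19.3, 17.9 and 15.6 in OSK. GSTA4 and OSK lay under both controls, and OSK was at -0.77 ± 0.1 against WT (adjusted p 2.26e-06). GDPD5, a membrane phosphodiesterase that releases lipid-anchored proteins, had 131.0, 128.8 and 122.9 CPM in WT, 165.8, 179.7 and 186.8 in GFP, 104.5, 100 and 90.6 in GSTA4 and 83.3, 87.2 and 76.7 in OSK. The 4 groups were separate, and OSK was at -0.63 ± 0.0685 against WT (adjusted p 1.73e-07). PICALM, a clathrin adaptor, had 202.0, 232.3 and 229.5 CPM in WT, 260.7, 243.4 and 241.2 in GFP, 164.8, 173.2 and 182.3 in GSTA4 and 145.6, 148.6 and 141.9 in OSK. Its groups were separate too, with -0.61 ± 0.0636 in OSK against WT (adjusted p 1.04e-07). The neighbours KCTD21 and USP35 fell by 0.74 ± 0.158 and 0.72 ± 0.126 (adjusted p 0.000631 and 8.61e-05).

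**Figure D3:**
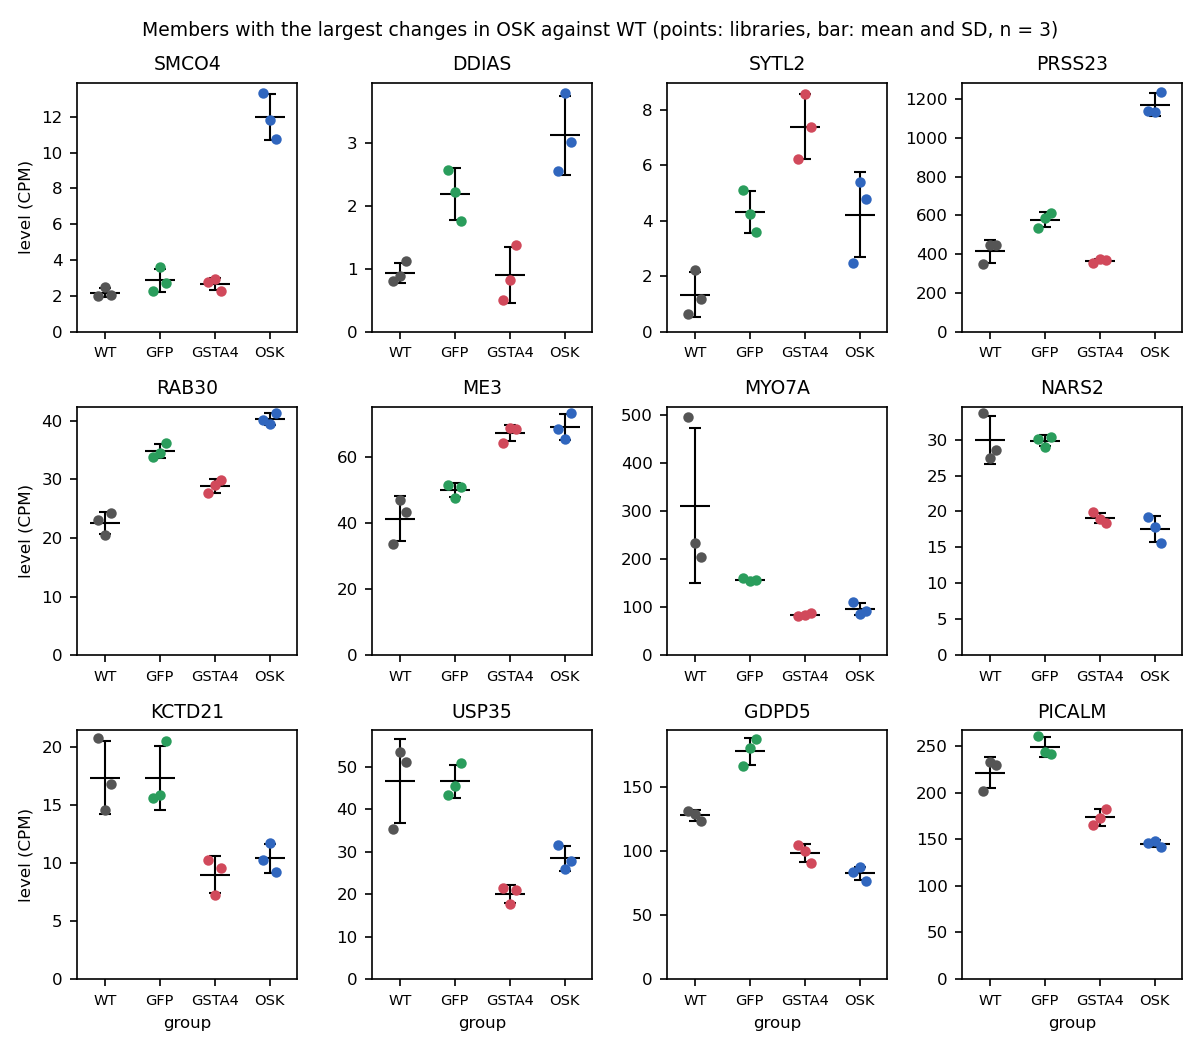
Levels in CPM (linear axes from 0) of the 12 members with the largest rises and falls in OSK against WT, in each library (points), with the group mean and SD (n = 3). SMCO4 and PRSS23 stand out in OSK, NARS2, KCTD21 and USP35 are low in both GSTA4 and OSK, and WT replicate 1 of MYO7A is far above all other libraries.

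OSK against GFP uses the GFP libraries that also entered the choice of members. With that stated, 22 of 50 members fell and 10 rose (44% and 20%), where 22.8% of all genes fell and 23.1% rose, and the median was -0.16. Since the members were chosen as lower than GFP, a distance of this sign is partly given by the choice. Rises were led by SMCO4 (2.06 ± 0.2, adjusted p 3.85e-08), PRSS23 (1.02 ± 0.0814, adjusted p 2.09e-09), MAP6 (0.50 ± 0.142, adjusted p 0.00703), PRCP (0.49 ± 0.0656, adjusted p 3.73e-06) and ME3 (0.47 ± 0.0918, adjusted p 0.000297). MAP6, which stabilises microtubules, had 14.5, 13.2 and 12.8 CPM in GFP, 18.1, 18.4 and 20.6 in OSK, 10.1, 6.83 and 9.56 in GSTA4 and 14.1, 18.4 and 19.8 in WT. OSK lay above GFP and GSTA4 below it, and WT overlapped both GFP and OSK. CAPN5, a calpain, was at 0.40 ± 0.16 (adjusted p 0.0478), a call that held in 7 of 19 other settings, with adjusted p up to 0.19.

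Falls in OSK against GFP were led by GDPD5 (-1.11 ± 0.0684, adjusted p 3.98e-11), PICALM (-0.77 ± 0.0637, adjusted p 3.33e-09), NARS2 (-0.76 ± 0.101, adjusted p 2.87e-06), KCTD21 (-0.74 ± 0.159, adjusted p 0.000728), USP35 (-0.71 ± 0.127, adjusted p 0.000101) and MYO7A (-0.70 ± 0.206, adjusted p 0.0086). The MYO7A call was lost with DESeq2 (adjusted p 0.0612). The non-members inside the interval had a median of -0.51 in this comparison, with 13 lower and 1 higher of 27. The flanks had medians of -0.12 before and -0.18 after. The members' median of -0.16 lay close to those of the flanks, while that of the non-members inside lay lower.

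GFP against WT compares the control line with cells that carry no named ORF, and also shares the GFP libraries. Of 50 members 16 rose and 3 fell (32% and 6%), against 11% higher and 11.2% lower of all genes, with a median of 0.16. Since the members were chosen as lower than GFP, genes high in the GFP libraries were favoured. A rise here is therefore partly given by the choice, and nothing is read from the distance to the background. Without WT replicate 1 the members that rose numbered 9. SYTL2 rose by 1.72 ± 0.347 (adjusted p 0.00146), TMEM135 by 0.63 ± 0.085 (adjusted p 2.97e-05), RAB30 by 0.62 ± 0.0833 (adjusted p 2.5e-05), TAF1D by 0.55 ± 0.0838 (adjusted p 9.96e-05) and PRSS23 by 0.48 ± 0.0812 (adjusted p 0.00028). TMEM135, a protein of peroxisomes and mitochondria, had 27.5, 30.6 and 30.2 CPM in WT and 48.7, 42.7 and 44.8 in GFP, with 39.0, 34.2 and 38.8 in GSTA4 and 29.2, 32.7 and 30.0 in OSK. TAF1D, of the RNA polymerase I initiation complex, had 46.7, 57.5 and 58.3 CPM in WT and 78.7, 79.2 and 79.5 in GFP, with 68.2, 72.0 and 69.1 in GSTA4 and 50.5, 60.3 and 50.7 in OSK. For both, GFP was the highest of the 4 groups and OSK overlapped WT. DDIAS rose by 1.21 ± 0.362 (adjusted p 0.0208), but its adjusted p reached 0.0682 without WT replicate 1 and passed 0.05 in 4 of 19 other settings, each of them leaving out a WT or a GFP library.

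The 3 members that fell in GFP against WT were MYO7A, CAPN5 and GAB2. MYO7A was at -0.98 ± 0.2 (adjusted p 0.00153), and at -0.48 without WT replicate 1. CAPN5 had 158.2, 87.8 and 85.6 CPM in WT, 61.8, 57.3 and 59.8 in GFP, 59.5, 54.5 and 52.4 in GSTA4 and 89.5, 72.8 and 73.3 in OSK. WT replicate 1 was again the highest, and the log2 fold change of -0.89 ± 0.158 (adjusted p 0.000437) became -0.54 without it. GAB2, a docking protein of growth factor receptors, had 167.6, 182.8 and 177.4 CPM in WT and 156.4, 143.1 and 163.3 in GFP, a change of -0.19 ± 0.0648 (adjusted p 0.0415) that kept its call in 11 of 19 other settings.

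**Figure D4:**
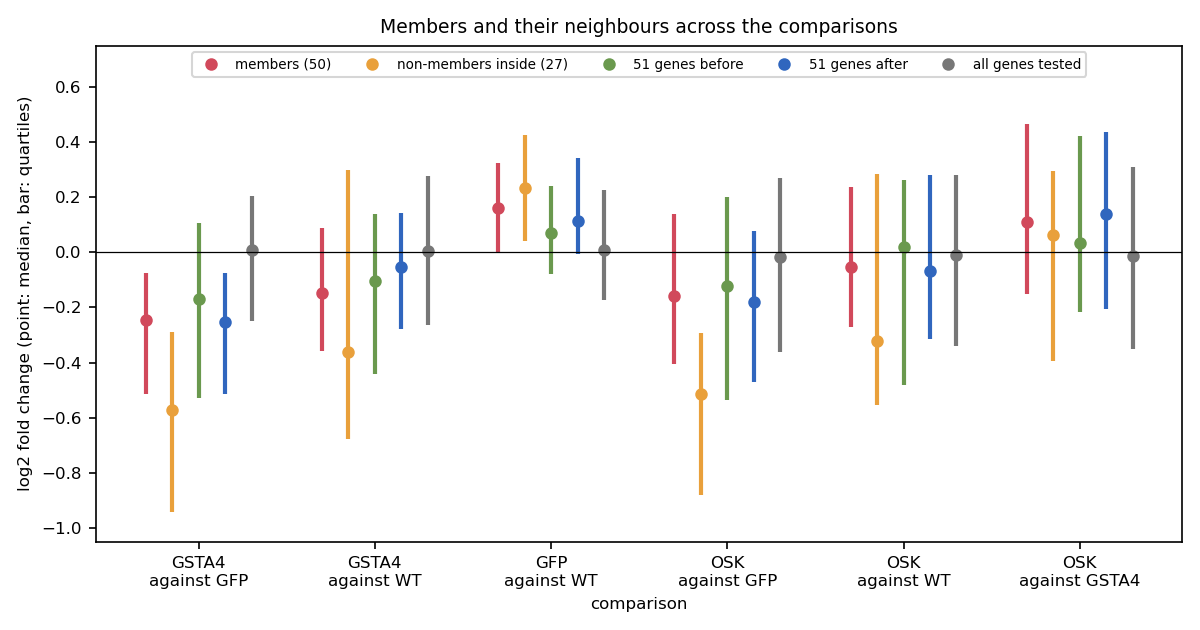
Median (point) and quartiles (bar) of the log2 fold change in each comparison for the 50 members, the 27 non-members inside the interval, the 51 tested genes on each side and all genes tested. The members' medians run from -0.24 in GSTA4 against GFP to 0.16 in GFP against WT, and the genes after them lie close by.

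By role, 7 of 8 members of the RNA group stood below WT in OSK, where 51% of all genes tested did. PCF11, a factor of transcript cleavage, passed the threshold at -0.24 ± 0.0648 (adjusted p 0.00502). So did CLNS1A, an assembly chaperone of spliceosomal cores, at -0.23 ± 0.0669 (adjusted p 0.00693). SRSF8, a splicing regulator, rose (0.41 ± 0.0835, adjusted p 0.000388). INTS4 of Integrator, MED17 of Mediator, CWC15 of the spliceosome, TAF1D and CREBZF did not pass, at -0.28 to -0.0075. In GSTA4 against GFP the group ran from -0.33 (INTS4) to 0.075 (CREBZF). Of the 5 chromatin and repair genes, EMSY, a partner of BRCA2 (-0.42 ± 0.0779, adjusted p 0.000152), and RSF1, a subunit of a nucleosome remodeller (-0.23 ± 0.0805, adjusted p 0.022), fell in OSK against WT. DDIAS rose. EED, a core subunit of Polycomb repressive complex 2, was at 0.18 and MRE11, the nuclease of the MRN complex, at -0.044, neither past the threshold.

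The mitochondrial and peroxisomal group was the only one whose median lay above 0 in GSTA4 against GFP (0.13). Against WT its median was 0.43, and that of vesicle traffic and autophagy also lay above 0 (0.154). Of the 6 mitochondrial and peroxisomal members, 3 were higher against GFP and 5 against WT, where 14.7% and 19.7% of all genes were. Those 5 were TMEM126A, also a complex I factor (0.37), TMEM126B (0.67), CCDC90B (0.48), ME3 (0.70) and TMEM135 (0.35), while NARS2 was at -0.65. Against GFP, TMEM126A was at 0.0053 and TMEM135 at -0.28. In GFP against WT, where 11% of all genes were higher, 5 of these 6 rose as well, all except NARS2, so for TMEM126A and TMEM135 the distance from WT was present in the control line. TMEM126A rose there by 0.37 ± 0.131 with an adjusted p of 0.0496. In vesicle traffic, UVRAG, of the autophagy lipid kinase complex, was at -0.39 in GSTA4 against GFP and -0.042 against WT, PICALM at -0.52 and -0.35, and RAB30 at -0.27 and 0.35.

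All 9 members in protein folding, glycosylation and proteolysis lay below 0 in GSTA4 against GFP, from -1.21 (USP35) to -0.062 (HIKESHI, the nuclear import factor of HSP70). Among all genes tested 48.9% lay below 0 there, and the members were chosen on these libraries. SERPINH1, the collagen chaperone HSP47, was at -0.091, CHORDC1, a co-chaperone of HSP90, at -0.50, and PRSS23 at -0.66. In OSK against GFP SERPINH1 fell by 0.42 ± 0.108 (adjusted p 0.00334) and CHORDC1 by 0.23 ± 0.0765 (adjusted p 0.0172), but against WT neither passed the threshold (-0.12 and -0.038). The 8 signalling and membrane proteins also all lay below 0 in GSTA4 against GFP, with SLC36A4, an amino acid transporter, at -0.72, FZD4, the receptor of Norrin, at -0.50, PAK1, a kinase below RAC and CDC42, at -0.14 and PANX1, a channel, at -0.13.

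In OSK against WT PAK1 (0.58 ± 0.11, adjusted p 0.000194) and AMOTL1 (0.42 ± 0.0598, adjusted p 6.37e-06) rose, and FZD4 (-0.33 ± 0.0589, adjusted p 0.000101), PANX1 (-0.39 ± 0.108, adjusted p 0.00506) and GAB2 (-0.28 ± 0.0649, adjusted p 0.00138) fell. FZD4 had 201.5, 197.5 and 213.3 CPM in WT, 252.8, 248.9 and 259.4 in GFP, 180.7, 173.8 and 184.7 in GSTA4 and 151.5, 171.5 and 164.3 in OSK, so that GSTA4 and OSK lay under both controls. NOX4 was at -0.065 in OSK against WT (adjusted p 0.733). Both tested genes of lipid metabolism fell in OSK against both controls: GDPD5, and ACER3, an alkaline ceramidase, by 0.50 ± 0.131 against WT (adjusted p 0.00344). ACER3 had 16.4, 20.04 and 16.03 CPM in GSTA4 and 37.0, 28.96 and 26.2 in GFP. DGAT2 had 0.124 to 1.14 CPM over the 12 libraries.

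Of the remaining members, CEP295, a centriole protein, was at -0.21 in GSTA4 against GFP, ANKRD42 at -0.071 and C11orf54 at -0.29. In all, 11 members passed the threshold in none of the 3 tested comparisons: ALG8, TENM4, ANKRD42, CREBZF, EED, HIKESHI, RAB38, SLC36A4, C11orf54, MED17 and ANKRD49. TENM4 and SLC36A4 were among the lower members in GSTA4, and RAB38 among the higher.

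In 4 pairs of members the genes start within 1000 bases of each other and point apart. KCTD21 and USP35, with 293 bases between their starts, moved alike, at -0.94 and -1.21 in GSTA4 against GFP, -0.74 and -0.71 in OSK against GFP and -0.74 and -0.72 in OSK against WT. ANKRD49 and MRE11 (140 bases) were at -0.24 and -0.42 in GSTA4 against GFP. C11orf54 and TAF1D (177 bases) were at -0.29 and -0.18 there, but at 0.14 and -0.55 in OSK against GFP. DDIAS and PRCP (92 bases) were at -1.27 and -0.25. The strand setting of the counting is not given in the sources used here, and some exons overlap those of another gene. By the annotation this touches 28.7% of the exonic bases of KCTD21, 20.2% of DDIAS, 18.9% of FZD4 and of PCF11, and 17.3% of TAF1D. It touches 16.3% of ANKRD42, 15.1% of C11orf54, 14.8% of PAK1, 14% of CCDC90B, 13.9% of CEP295, 13.5% of MED17 and 11.9% of PRSS23. The values of these 12 genes are less certain. No other gene's exons overlap those of 25 members, NOX4, TENM4, MYO7A, GDPD5, SYTL2, PICALM, ME3 and SMCO4 among them.

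Many members work in complexes whose other subunits lie elsewhere in the genome, and those partners, listed by complex and not by place, were tested in GSTA4 against GFP. The lists were drawn up with earlier results of these data known, so the calls are not independent evidence. Of 151 tested partners, 33 rose and 15 fell in GSTA4 against GFP (21.9% and 9.93%), against 14.7% and 14.6% of all genes, with a median of 0.007. Most partners had a mean of at least 10 CPM. Among all genes at that level 19.7% were higher and 16.7% lower, so the share that rose was near this background. Partners of PICALM, the clathrin chains and the AP2 adaptor, rose in 4 of 8 and fell in none, led by AP2S1 (0.28 ± 0.068, adjusted p 0.00343) and AP2A2 (0.27 ± 0.0671, adjusted p 0.00416), while PICALM itself was at -0.52. Partners of UVRAG rose in 3 of 5, with BECN1 at 0.28 ± 0.0718 (adjusted p 0.00611) and RUBCN at 0.38 ± 0.0998 (adjusted p 0.00673), and 1 fell. The complex I assembly partners of TMEM126B rose in 3 of 5 with none lower, COA1 by 0.34 ± 0.0794 (adjusted p 0.00295) and TIMMDC1 by 0.27 ± 0.0716 (adjusted p 0.0064), in the same direction as TMEM126B. For AP2A2, BECN1 and TIMMDC1 the GFP mean lay under WT and the GSTA4 mean near WT. Their means in WT, GFP and GSTA4 were 109.4, 88.29 and 106.6 CPM, 88.38, 75.86 and 91.9, and 75.85, 64.37 and 77.82. The GSTA4 mean stood further above WT for AP2S1 (78.28, 70.97 and 86.41), RUBCN (31.43, 30.41 and 39.46) and COA1 (41.03, 39.07 and 49.4). Partners of RSF1 rose against GFP in 3 of 7 and those of EED in 3 of 10, with none lower in either list. The number of partners that fell was 9 without GFP replicate 2 and 8 without GSTA4 replicate 2. The number that rose was 25 and 23 in the same fits.

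Collagen folding enzymes, listed with SERPINH1, went the other way, with 5 of 10 lower and 1 higher. P4HA1, a prolyl hydroxylase, fell by 0.77 ± 0.101 (adjusted p 5.96e-06) and P4HA2 by 0.49 ± 0.0716 (adjusted p 2.2e-05). COL1A1, a collagen chain among the mesenchymal markers that was picked out after its values were seen, had 83.0, 84.5 and 80.3 CPM in GFP and 3.24, 3.68 and 6.67 in GSTA4, and the summed list of 6 mesenchymal markers was 708.1 to 775.9 CPM in GFP and 528.8 to 557.7 in GSTA4, with LUM at 0 reads in all libraries. Their part in the collagen result was not tested. Of the Usher and melanosome partners of MYO7A, 2 of 3 tested fell, MYRIP by 0.60 ± 0.132 (adjusted p 0.00167) and CDH23, with few reads, by 1.82 ± 0.612 (adjusted p 0.0303). Integrator had 2 of 13 lower and 2 higher, with INTS6 at -1.24 ± 0.104 (adjusted p 1.01e-08), from 243.8 CPM in GFP to 103 in GSTA4 and 90.06 in WT. Mediator had 3 of 28 higher and 2 lower, lipid-linked oligosaccharide assembly 3 of 11 higher and 2 lower, and the angiomotin and Hippo list 3 of 7 higher and 1 lower. The cleavage and polyadenylation list had 1 of 15 higher, the PRPF19 list 2 of 9, the PRMT5 list 1 of 4 and the HSP90 list 1 of 4, with none lower, and the MRN, RNA polymerase I and Norrin receptor lists had no call in 4, 5 and 3 tested genes.

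**Figure D5:**
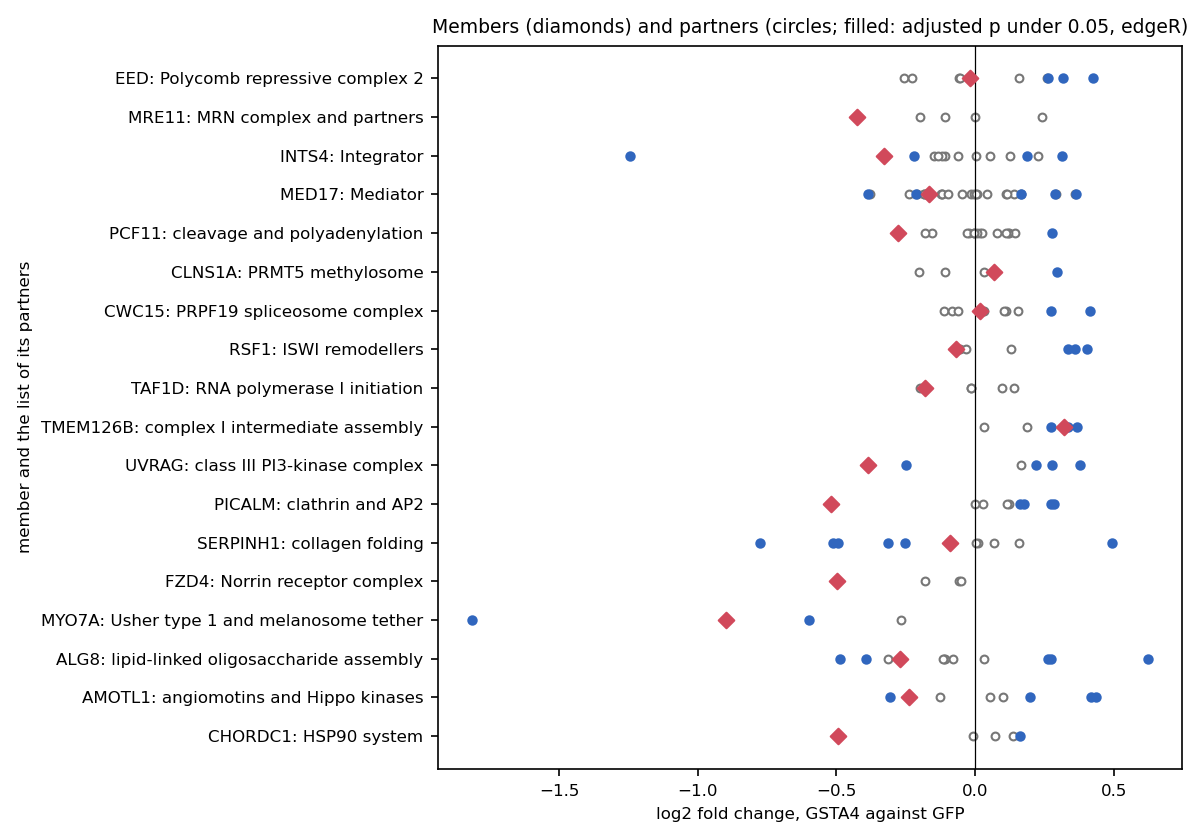
Log2 fold change in GSTA4 against GFP of 18 members (diamonds) and of the tested genes of their complexes or pathways elsewhere in the genome (circles, filled where the adjusted p is under 0.05). The clathrin and AP2 genes lie to the right of PICALM, and the collagen folding list reaches from -0.77 to 0.49.

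Gene length was compared with the ratios as a description across genes, which are not independent replicates. Spearman's rho between gene length and the log2 fold change in GSTA4 against GFP was -0.21 over the 50 members and -0.11 over 15122 placed genes. In OSK against WT it was 0.096 and 0.036.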

How the data were processed

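RNA-seq read counts per gene, deposited by the authors as a table of whole numbers for 12 libraries, were used as deposited. Per the submitters' processing notes, STAR 2.7.1a and featureCounts 1.6.2 were used and human (GRCh38, hg38) and mouse (GRCm38, mm10) builds are named with no role given. The annotation release and the strand setting are not given in the sources used here. Lines without a gene name (20014 of 60605, holding 0.485 to 0.822% of reads) were left out. Genes passing filterByExpr were scaled by TMM and fitted in edgeR 4.0.16 (R 4.3.3, limma 3.58.1) by the quasi-likelihood test over all 4 groups, with no covariate, 8 residual and 12 prior degrees of freedom, and Benjamini-Hochberg adjustment over the 15179 genes tested. An adjusted p under 0.05 was called, and DESeq2 1.42.0, other scalings and filters, and fits leaving out each library were the alternatives. The fitting code was tested on simulated data. A count of 3 reads, the limit that a count of 0 allows, is 0.177 to 0.228 CPM, which covers counting error only. Genes were placed by symbol in RefSeq's GRCh38.p14 annotation (14813) or GENCODE (309). The members, the partner lists and the marker lists were chosen with earlier results of these data known. The members named with all libraries' values are the 6 lowest, the 6 highest and the 4 nearest the median in GSTA4 against GFP, and the 6 with the largest rises and falls past the threshold in each tested comparison, with others named by role.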

Additional observations from a re-analysis of the deposited data

Results flagged for a closer look

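For 6 members every GSTA4 library lay on one side of all GFP libraries and every OSK library on the other. The share of all genes tested with this pattern is not given here, so nothing is read from the number of members. The difference between the log2 fold changes, OSK minus GSTA4, was 1.679 for PRSS23, 1.102 for MAP6, 0.737 for PRCP, 0.4817 for RAB30 and 0.4766 for AMOTL1, which were above GFP in OSK and below it in GSTA4. It was -0.5406 for TMEM126B, which was above GFP in GSTA4 and below it in OSK. Because the members were chosen on GSTA4 libraries, these differences are a description, and the fit's p-values for OSK against GSTA4 are not given as a test; in libraries outside that choice the difference was not tested.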

How the results depend on the processing

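Set against their values under the alternatives, counts and medians stayed within 1.5 times or within the spread between libraries in 360 cases and moved further in 20, and single members kept direction and call in 602 cases, lost the call in 25 and reversed in 0. Scaled by library size alone, the members' medians were -0.228 in OSK against GFP, -0.121 in OSK against WT and 0.0477 in OSK against GSTA4, the median of all genes in OSK against GFP moved to -0.0913, and 60.2%, 58.9% and 57.5% of all calls were lower in these 3 comparisons, against 49.6%, 49.9% and 49.7%. Members lower and higher were then 25 and 7 in OSK against GFP and 17 and 10 in OSK against WT. With no filter, 6 members were lower in GFP against WT and the median in GSTA4 against WT was -0.119.

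Leaving out each library in turn, the members' median ran from -0.198 to -0.149 in OSK against GFP, 0.122 to 0.178 in GFP against WT, -0.0842 to -0.0156 in OSK against WT, -0.158 to -0.105 in GSTA4 against WT and 0.0718 to 0.138 in OSK against GSTA4. Members higher ran from 9 to 16 in GFP against WT, members lower there from 2 to 4, and members higher in GSTA4 against GFP from 3 to 5. Partners lower ran from 8 to 15 and partners higher from 23 to 37. The cause was not tested.

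With the replicate number as a replicate block, 5 members were lower in GFP against WT, against 3 without it. Of 18 correlations between same-numbered libraries' deviations, 3 passed 0.1 (-0.0204 to 0.169), each of them WT replicate 1 with another replicate 1, and of 36 between different numbers 0 did (-0.112 to 0.0875). Not every same-numbered pair passed 0.1, and the labels tie the numbers to no shared culture or day, so the numbers were not taken as pairs. With 3 libraries a group, the low counts of DDIAS, SYTL2 and SMCO4 gave wider errors than those of well-covered members.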
